A study of Mus musculus with 12 samples.

Results

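Hedgehog signaling was followed through 9 genes: the ligand *Ihh*, the receptor *Ptch1*, the transducer *Smo*, the co-receptors *Gas1* and *Boc*, the inhibitor *Hhip* and the transcription factors *Gli1*, *Gli2* and *Gli3*. They were taken by gene symbol from a table of 36186 gene rows, where each symbol had 1 row. All 9 passed the filter on expression that left 10936 genes for testing.

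The RNA came from chondrocytes of the forelimb zeugopod, the segment of radius and ulna, of E15.5 mouse embryos of mixed 129 and CD-1 background. Each of 4 groups had 3 libraries: the resting, proliferative and hypertrophic compartments of wild type (WT) growth plates, and *aadd* mutants. The *aadd* mice are homozygous for frameshift mutations in the first exons of *Hoxa9*, *Hoxa10*, *Hoxa11*, *Hoxd9*, *Hoxd10* and *Hoxd11*. Their zeugopod chondrocytes were captured whole, because the mutant segments were small and even in histology. All captures were mostly chondrocytes with some perichondrial cells. The GEO labels call the hypertrophic libraries hyperproliferative and place the *aadd* libraries in the resting compartment. Cells were isolated by laser capture microdissection, and levels are given as NRPKM, reads per exon length and library size that the authors scaled further between libraries. NRPKM is per length, so levels may be set side by side between genes, but only roughly, as the further scaling is not given. In such bulk samples, fewer cells of a type and less RNA per cell cannot be told apart. The study describes 3 independent sets of compartments. The labels do not say whether replicates came from separate embryos, so *P* values measure the spread between libraries.

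Hedgehog ligands are secreted proteins that bind Ptch1. Unbound Ptch1 holds Smo inactive, and ligand binding releases Smo, which acts through the primary cilium to stop the processing of Gli3 and Gli2 into repressors and to allow their activator forms. *Ptch1*, *Gli1* and *Hhip* are themselves transcribed in response to the signal in many tissues. In the growth plate, Ihh is made by prehypertrophic chondrocytes. It promotes chondrocyte proliferation, induces *Pthlh* (the gene of PTHrP) near the bone end and directs bone formation in the adjacent perichondrium.

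Of the 9 genes, 7 had a start of transcription in the RefSeq promoter table (GRCm38.p6): *Ihh*, *Ptch1*, *Smo*, *Gli2*, *Gli3*, *Hhip* and *Gas1*. The 250 bases before the start are shown for 3 of them: that of *Ihh*, which differed most between groups, and those of *Gli2* and *Gli3*, which were called in the same direction in 3 of the comparisons. Capitals mark a match to the GLI core ACCACCC or to the RUNX motif TGTGGT on either strand. They lie at chr1:74951673-74951922 on the minus strand (*Ihh*), chr1:119053620-119053869 on the minus strand (*Gli2*) and chr13:15463473-15463722 on the plus strand (*Gli3*).
*Ihh*: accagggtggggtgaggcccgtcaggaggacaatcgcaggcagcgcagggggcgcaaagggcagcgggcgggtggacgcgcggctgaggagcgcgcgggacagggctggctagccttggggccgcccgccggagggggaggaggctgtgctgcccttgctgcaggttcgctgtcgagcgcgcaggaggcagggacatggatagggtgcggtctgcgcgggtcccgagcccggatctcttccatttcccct
*Gli2*: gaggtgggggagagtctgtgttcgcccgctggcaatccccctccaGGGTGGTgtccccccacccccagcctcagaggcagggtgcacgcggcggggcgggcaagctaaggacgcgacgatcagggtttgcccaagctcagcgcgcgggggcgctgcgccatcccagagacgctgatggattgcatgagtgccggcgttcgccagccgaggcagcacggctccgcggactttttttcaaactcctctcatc
*Gli3*: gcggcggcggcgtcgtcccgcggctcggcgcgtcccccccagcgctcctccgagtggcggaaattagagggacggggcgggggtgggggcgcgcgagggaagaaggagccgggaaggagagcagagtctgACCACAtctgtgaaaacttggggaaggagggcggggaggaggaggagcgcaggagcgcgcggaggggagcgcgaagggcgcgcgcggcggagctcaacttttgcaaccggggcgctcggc
The longer GLI motif GACCACCCA, which contains the core, was in none of the 7 windows and in 0.225% of all 32851 promoters. The core was in the *Gli2* window, 205 to 199 bases before the start, and in 3.92% of all promoters. The RUNX motif was in the *Gli3* window, 120 to 115 bases before the start, and in 14% of all promoters. These matches describe the letters alone.

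Depth was read from 1624 genes of sensory receptor and keratin-associated families that span under 2500 bases, taken as silent in cartilage. It came to about 1890000 to 3240000 reads per library, and 1 read on a transcript of 1 kb was worth 0.309 to 0.53 NRPKM. The 10 cartilage matrix markers summed to 2250 to 4700 NRPKM in the resting, proliferative and *aadd* libraries. In the hypertrophic libraries they summed to 2620, 694 and 1020, and replicate 1 also stood apart in the 10 osteoclast markers, with 51.5 NRPKM against 1350 and 995, as in the endothelial (24.4 against 324 and 227) and macrophage markers (24.0 against 293 and 234). The 10 hypertrophic and osteoblast markers summed to 1190 to 3680 NRPKM in the hypertrophic libraries and to 46.9 to 58.6 in *aadd*, close to the 54.7 to 83.1 of the resting compartment. In the proliferative libraries they summed to 247 to 509 NRPKM.

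*Ihh* (gene identifier 16147, mm10 chromosome 1 from 74945318 to 74951651) was the gene with the widest range. It stood at 0.783, 0.275 and 0.517 NRPKM in the resting libraries, at 20.1, 27.0 and 40.5 in the proliferative, at 56.3, 9.54 and 15.3 in the hypertrophic and at 1.31, 0.602 and 0.693 in *aadd*. All 6 proliferative and hypertrophic libraries lay above all 6 resting and *aadd* libraries, while resting and *aadd* overlapped. *Ihh* rose 47.7-fold from resting to proliferative (log2 fold change 5.58 ± 0.39, SE; adjusted *P* of 0.0087 by limma). It was 34.4-fold higher in hypertrophic than in resting (5.11 ± 0.68, adjusted *P* of 0.013), and 30.5-fold and 22.0-fold lower in *aadd* than in proliferative and hypertrophic (adjusted *P* of 0.0018 and 0.014). Without hypertrophic replicate 1 the log2 fold change from resting to hypertrophic was 4.37, and that from hypertrophic to *aadd* was -3.72. The adjusted *P* against resting rose to 0.069 without resting replicate 2, 0.063 without resting replicate 3 and 0.053 without hypertrophic replicate 3. It rose to 0.061 and 0.072 between *aadd* and hypertrophic without *aadd* replicate 2 or 3. Between *aadd* and resting the log2 difference was 0.64, with a 95% confidence interval from -0.27 to 1.56, and was not called. It was called without resting replicate 1, at 0.94 (adjusted *P* of 0.43, in a range of 0.41 to 0.96 over all alternatives).

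The low levels of *Ihh* rested on few reads. They were equivalent to 2.02 to 7.06 reads in resting and 4.03 to 11.1 reads in *aadd*, against 94.2 to 401 in the other libraries, so the size of each fold depends on the 0.1 added before the log. The silent genes averaged 0.111 to 0.239 NRPKM in resting and 0.0924 to 0.462 in *aadd*. Resting replicate 2, with 0.275 NRPKM of *Ihh* against 0.239 of silent genes, and *aadd* replicate 2, with 0.602 against 0.462, were close to that background.

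**Figure D1:**
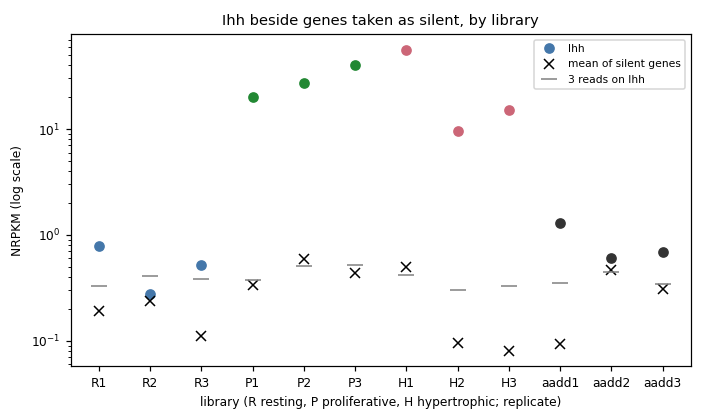
NRPKM of *Ihh* (filled circles, log axis) in each of the 12 libraries, beside the mean of the silent genes (crosses) and the value of 3 reads on *Ihh* (dashes). The proliferative and hypertrophic libraries sit at 9.54 NRPKM or more, and the resting and *aadd* libraries at 1.31 or less.

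*Ptch1* (identifier 19206, chromosome 13 from 63508336 to 63565520), the Hedgehog receptor and a common target of the signal, stood at 93.6, 87.3 and 73.0 NRPKM in resting, 140.0, 146 and 157 in proliferative, 171, 90.3 and 109 in hypertrophic and 49.6, 42.3 and 54.0 in *aadd*. Every *aadd* library was below every WT library. *Ptch1* was 1.74-fold lower in *aadd* than in resting (log2 fold change -0.80 ± 0.18, SE; *P* of 0.0031, adjusted *P* of 0.24 by limma), a change that met the study's criteria but not adjustment. It was 3.04-fold lower than in proliferative and 2.45-fold lower than in hypertrophic (adjusted *P* of 0.0082 and 0.042). The proliferative libraries were all above the resting ones, but the 1.75-fold difference was under the 2-fold limit (adjusted *P* of 0.11). Hypertrophic and proliferative overlapped, as did hypertrophic and resting.

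*Smo* (identifier 319757, chromosome 6 from 29735497 to 29761366), which carries the signal across the membrane, was the steadiest of the 9 genes. It stood at 61.6, 66.4 and 68.3 NRPKM in resting, 50.2, 43.7 and 49.4 in proliferative, 50.8, 38.3 and 42.2 in hypertrophic and 63.6, 63.8 and 61.7 in *aadd*. The resting and *aadd* libraries were all above the proliferative and hypertrophic ones. No comparison passed its fold limit. The log2 difference of *aadd* from resting was -0.05, with a 95% confidence interval from -0.39 to 0.29, and from hypertrophic it was 0.53 (0.10 to 0.96), which passed the 1.5-fold limit with quantile normalization (0.65, adjusted *P* of 0.088) or when hypertrophic replicate 1 was left out (0.65, adjusted *P* of 0.037, in a range of 0.036 to 0.36 over all alternatives).

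*Gas1* (identifier 14451, chromosome 13 from 60174405 to 60177535) encodes a membrane-anchored co-receptor that binds ligand together with Ptch1. It was at 12, 16.6 and 23.9 NRPKM in resting, 2.56, 4.51 and 2.71 in proliferative, 1.5, 8.09 and 5.36 in hypertrophic and 47.3, 52.7 and 49.8 in *aadd*. Every *aadd* library lay above every WT library, and every resting library above all proliferative and hypertrophic ones. *Gas1* was 2.95-fold higher in *aadd* than in resting (log2 fold change 1.56 ± 0.26, SE; *P* of 0.00055, adjusted *P* of 0.13 by limma), 15.4-fold higher than in proliferative (adjusted *P* of 0.0013) and 12-fold higher than in hypertrophic (adjusted *P* of 0.017). It was 5.20-fold lower in proliferative than in resting (adjusted *P* of 0.043). It was also 4.07-fold lower in hypertrophic than in resting (adjusted *P* of 0.10), a call lost without resting replicate 3 (log2 fold change -1.78). Without hypertrophic replicate 1 the log2 fold change was -1.34 from resting to hypertrophic, and 2.90 rather than 3.59 from hypertrophic to *aadd*.

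*Boc* (identifier 117606, chromosome 16 from 44485045 to 44558870), an immunoglobulin family co-receptor, was at 51.5, 109 and 89.3 NRPKM in resting, 12.1, 11.0 and 15.1 in proliferative, 7.99, 6.55 and 8.10 in hypertrophic and 74.3, 80.4 and 68.9 in *aadd*. It was 6.25-fold lower in proliferative than in resting (-2.64 ± 0.31, SE, on the log2 scale; adjusted *P* of 0.027 by limma) and 10.4-fold lower in hypertrophic than in resting (adjusted *P* of 0.0041). It was 5.86-fold and 9.78-fold higher in *aadd* than in proliferative and hypertrophic (adjusted *P* of 0.0018 and 0.00046). Unlike the values of *Gas1*, those of *Boc* in *aadd* lay within the resting range, with a log2 difference of -0.09 and a 95% confidence interval from -0.77 to 0.58. The row of *Boc* overlaps that of *Mir3081*, whose reads cannot be told apart from it where strand is not stated.

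*Hhip* (identifier 15245, chromosome 8 from 79965851 to 80058008), a membrane protein that binds and sequesters Hedgehog ligand, varied widely within groups. It stood at 5.76, 3.52 and 10.3 NRPKM in resting, 4.29, 2.71 and 15.4 in proliferative, 20.0, 15.4 and 27.7 in hypertrophic and 10.4, 7.03 and 16.4 in *aadd*. The hypertrophic libraries were all above the resting and proliferative ones, the lowest of them only just, and overlapped with *aadd*. *Hhip* was 3.40-fold higher in hypertrophic than in resting (adjusted *P* of 0.063 by limma) and 3.57-fold higher than in proliferative (adjusted *P* of 0.22). The second call was lost without proliferative replicate 1 (log2 fold change 1.64), proliferative replicate 2 (1.32), hypertrophic replicate 1 (1.85) or hypertrophic replicate 3 (1.62), and the value was 2.55 without proliferative replicate 3. *Hhip* was 1.92-fold lower in *aadd* than in hypertrophic, with overlap (adjusted *P* of 0.18), and this call was lost without hypertrophic replicate 1 or 3 (-0.95 and -0.72) or *aadd* replicate 1 or 2 (-0.92 and -0.64). Between *aadd* and resting the log2 difference of 0.83 was not called (95% confidence interval from -0.24 to 1.89). It was called without resting replicate 3, at 1.22, as was the difference from proliferative without proliferative replicate 3, at 1.61.

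*Gli1* (identifier 14632, chromosome 10 from 127329882 to 127341886), an activator that is itself induced by the signal, was at 23.6, 38.8 and 29.5 NRPKM in resting, 20.0, 21.0 and 28.4 in proliferative, 22.3, 9.57 and 10.2 in hypertrophic and 13.91, 13.92 and 13.96 in *aadd*. Every *aadd* library was below all resting and proliferative libraries and between the hypertrophic ones. *Gli1* was 2.15-fold lower in *aadd* than in resting (log2 fold change -1.10 ± 0.21, SE; *P* of 0.0012, adjusted *P* of 0.18 by limma) and 1.63-fold lower than in proliferative (adjusted *P* of 0.11), the latter lost without proliferative replicate 3 (-0.55). The *aadd* libraries varied by 0.195% of their mean, less than the 7.47% that counting alone gives at 153 to 200 reads, so this closeness is no measure of the error. *Gli1* was 2.30-fold lower in hypertrophic than in resting (adjusted *P* of 0.11), a call lost without resting replicate 2 (-1.02), hypertrophic replicate 2 (-0.98) or hypertrophic replicate 3 (-1.03). Its row overlaps that of *Arhgap9*, which was listed at 0 to 2.26 NRPKM in the 12 libraries.

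*Gli2* (identifier 14633, chromosome 1 from 118834061 to 119053619), the main activator of the family, stood at 33.1, 47.0 and 42.0 NRPKM in resting, 19.5, 19.3 and 24.2 in proliferative, 17.7, 15.52 and 21.0 in hypertrophic and 40.4, 35.4 and 33.8 in *aadd*. The resting and *aadd* libraries overlapped and were all above the proliferative and hypertrophic ones. *Gli2* was 2.24-fold lower in hypertrophic than in resting (-1.16 ± 0.21, SE, on the log2 scale; adjusted *P* of 0.032 by limma). In *aadd* it was 1.74-fold higher than in proliferative (adjusted *P* of 0.07) and 2.03-fold higher than in hypertrophic (adjusted *P* of 0.028). Proliferative was 1.92-fold below resting (adjusted *P* of 0.11), which passed the 2-fold limit only without resting replicate 1 (-1.08) or proliferative replicate 3 (-1.05).

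*Gli3* (identifier 14634, chromosome 13 from 15463235 to 15730025), the main repressor, was at 55.8, 62.3 and 54.6 NRPKM in resting, 37.1, 36.2 and 36.2 in proliferative, 32.9, 21.9 and 24.4 in hypertrophic and 69.7, 62.7 and 76.5 in *aadd*. No group overlapped another, in the order *aadd*, resting, proliferative, hypertrophic, although the neighbours *aadd* and resting differed by only 0.27 on the log2 scale (95% confidence interval from -0.11 to 0.65). Proliferative and hypertrophic, neighbours too, were not called apart (-0.49, -0.99 to 0.01). *Gli3* was 2.21-fold lower in hypertrophic than in resting (adjusted *P* of 0.032 by limma). It was 1.90-fold and 2.67-fold higher in *aadd* than in proliferative and hypertrophic (adjusted *P* of 0.039 and 0.015).

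**Figure D2:**
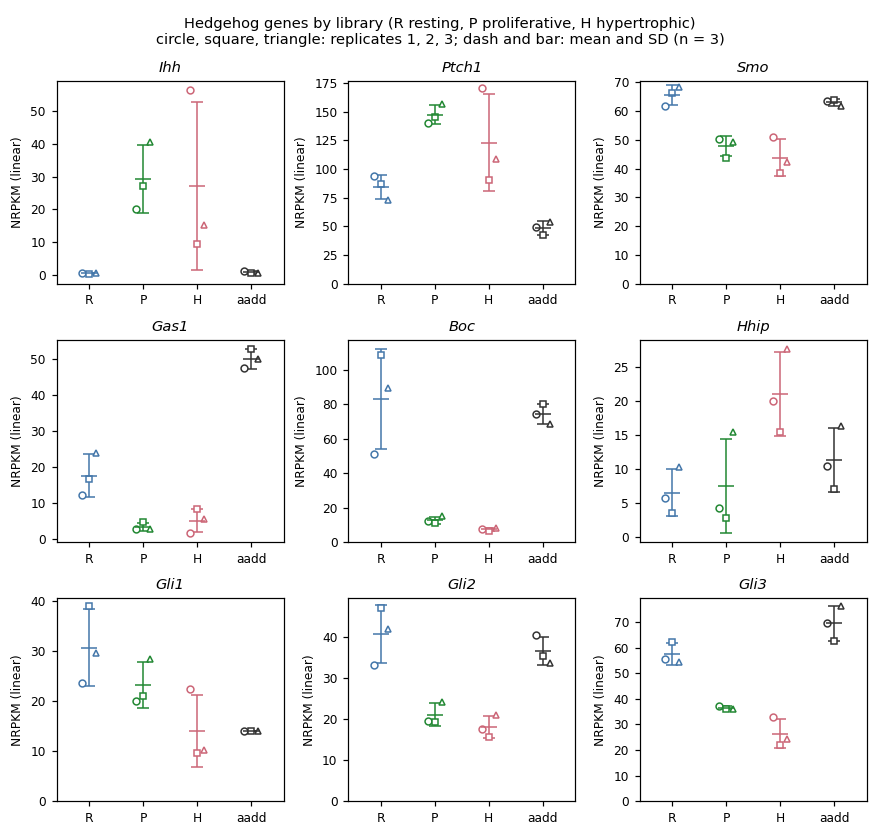
NRPKM (linear axes) of the 9 Hedgehog genes in the 12 libraries, by group (R, resting; P, proliferative; H, hypertrophic), with each replicate as a symbol and the mean and SD as a dash and bar (n = 3). *Ptch1* is lowest and *Gas1* highest in *aadd*, while *Boc* and *Gli2* in *aadd* lie within the resting range.

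Across the 4 groups, 7 of the 9 genes passed limma's moderated F test at an adjusted *P* under 0.05, against 13.8% of all genes tested. *Gli1* (adjusted *P* of 0.054) and *Hhip* (0.13) did not. Over 18 alternatives 6 to 8 genes passed, and the adjusted *P* of *Smo*, 0.041, ranged from 0.011 to 0.18. The other 6 genes passed in each of them. The pairwise comparisons asked which genes mark the steps between WT compartments, and how *aadd* stood against each compartment. A gene was called at an unadjusted *P* up to 0.05 with at least 2-fold between WT compartments or 1.5-fold between *aadd* and WT. The 6 comparisons share libraries, so their calls are not independent. The median log2 fold change of the 9 genes, beside that of all genes, was -0.46 against -0.06 between proliferative and resting, -0.31 against 0.04 between hypertrophic and proliferative and -1.14 against -0.02 between hypertrophic and resting. It was -0.05 against 0.01, 0.80 against 0.05 and 0.53 against 0.01 for *aadd* against resting, proliferative and hypertrophic.

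Between proliferative and resting, 3 of the 9 genes were called, with *Ihh* higher and *Gas1* and *Boc* lower, where 5.53% of all genes were called. These 3 had an adjusted *P* under 0.05, as did 0.622% of all genes. In a fit with the replicate number as a block, which paired these libraries, the adjusted *P* became 0.054 for *Ihh* (range over all alternatives 0.0018 to 0.054), 0.08 for *Gas1* (0.029 to 0.18) and 0.072 for *Boc* (0.001 to 0.11). The groups did not overlap for 7 of the 9 genes, against 24% of all genes. Besides the genes called, these were *Ptch1*, higher in proliferative, and *Smo*, *Gli2* and *Gli3*, lower. The 10 hypertrophic and osteoblast markers moved with *Ihh*, from 54.7 to 83.1 NRPKM in resting to 247 to 509 in proliferative. Of the 8 tested, 5 were called higher and 0 lower. The part of hypertrophic cells in the proliferative values was not tested.

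Between hypertrophic and proliferative, *Hhip* alone was called, where 9.67% of all genes were. No member, and 0% of all genes, had an adjusted *P* under 0.05 by limma, with 2115 genes at an unadjusted *P* up to 0.05 and 705 passing adjustment when all 12 libraries shared one fit. The groups did not overlap for 3 of 9 genes (*Hhip*, *Boc* and *Gli3*), against 24.2% of all genes. Without hypertrophic replicate 1, 3 genes were called: *Ihh* (log2 fold change -1.21, adjusted *P* of 0.084), *Gli1* (-1.20, 0.025) and *Gas1* (1.04, 0.09). Of the 10936 genes tested, 2007 were called in that fit and 1905 passed adjustment, against 1057 and 0 in the reported fit. Without hypertrophic replicate 2, *Ihh* and *Gas1* changed sign (0.07 and -0.14). Over all alternatives the adjusted *P* ranged from 0.084 to 0.98 for *Ihh*, 0.025 to 0.62 for *Gli1* and 0.09 to 0.95 for *Gas1*. Replicate 1 had the highest *Ihh*, *Ptch1*, *Smo*, *Gli1* and *Gli3* of its group and the lowest *Gas1*, beside the cartilage and osteoclast marker sums given above. The part of those cells in these values was not tested.

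Between hypertrophic and resting, 7 of the 9 genes were called, with *Ihh* and *Hhip* higher and *Gas1*, *Boc*, *Gli1*, *Gli2* and *Gli3* lower, where 13% of all genes were called. Adjustment left 4 (*Ihh*, *Boc*, *Gli2* and *Gli3*), against 6.36% of all genes, and of these *Boc* alone passed in all 13 alternatives. The adjusted *P* ranged up to 0.069 for *Ihh* and 0.13 for both *Gli2* and *Gli3*. The groups did not overlap for 8 of the 9 genes, *Ptch1* being the exception, against 32% of all genes. Markers of other cell types moved with this comparison. The osteoclast markers summed to 16.8 to 25.9 NRPKM in resting and 51.5 to 1350 in hypertrophic, the endothelial markers to 15.2 to 33.2 and 24.4 to 324, and the macrophage markers to 14.3 to 19.1 and 24.0 to 293, while 8 of 10 cartilage matrix markers were called lower. The part of those cells in these values was not tested.

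Between *aadd* and resting, 3 of the 9 genes were called, *Gas1* higher and *Ptch1* and *Gli1* lower, where 6.56% of all genes were called. None passed adjustment, which 0.119% of all genes did. The calls of these 3 genes were kept under all 13 alternatives, including each library left out. The groups did not overlap for these 3 genes and *Gli3*, against 15.4% of all genes. The joint interzone markers moved with *Gas1*: the 10 summed to 223 to 278 NRPKM in resting and 374 to 418 in *aadd*, with 5 of the 9 tested called higher. They included *Osr1*, a transcription factor of joint and connective tissue precursors (log2 fold change 2.01, adjusted *P* of 0.099). None of the 10 was at 0 in all 3 libraries of either group. The 10 perichondrium and fibroblast markers overlapped, at 544 to 920 NRPKM in resting and 515 to 1210 in *aadd*, with 1 of 9 called higher. The 10 skeletal muscle markers did not overlap, at 4.98 to 13.6 NRPKM in resting and 15.4 to 45.1 in *aadd*, and *Actc1*, an actin of muscle and the single one tested, was called higher (log2 fold change 2.97, adjusted *P* of 0.096). In the other WT groups the muscle sums reached 88.7 NRPKM. The part of joint, perichondrial or muscle cells in the levels of *Gas1*, *Ptch1* and *Gli1* was not tested here. In the study's immunostaining of E15.5 forelimbs, the rise of Gas1 protein in *aadd* lay mainly outside the chondrocytes, in the cells beside them.

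Between *aadd* and proliferative, 7 of the 9 genes were called, with *Gas1*, *Boc*, *Gli2* and *Gli3* higher and *Ihh*, *Ptch1* and *Gli1* lower, where 15.8% of all genes were called. Adjustment left 5 (*Ihh*, *Ptch1*, *Gli3*, *Gas1* and *Boc*), against 3% of all genes, and *Ihh*, *Gas1* and *Boc* passed in all 13 alternatives. The groups did not overlap for 8 of 9 genes, against 25.6% of all genes. Between *aadd* and hypertrophic, 7 of the 9 were called, with *Gas1*, *Boc*, *Gli2* and *Gli3* higher and *Ihh*, *Ptch1* and *Hhip* lower, where 21.9% of all genes were called. Adjustment left 6, all but *Hhip*, against 7.64% of all genes, and of these *Boc* alone passed in all 13 alternatives. The groups did not overlap for 7 of 9, against 30.9% of all genes. The joint interzone markers were lower in the proliferative and hypertrophic libraries too, at 104 to 124 and 124 to 159 NRPKM.

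**Figure D3:**
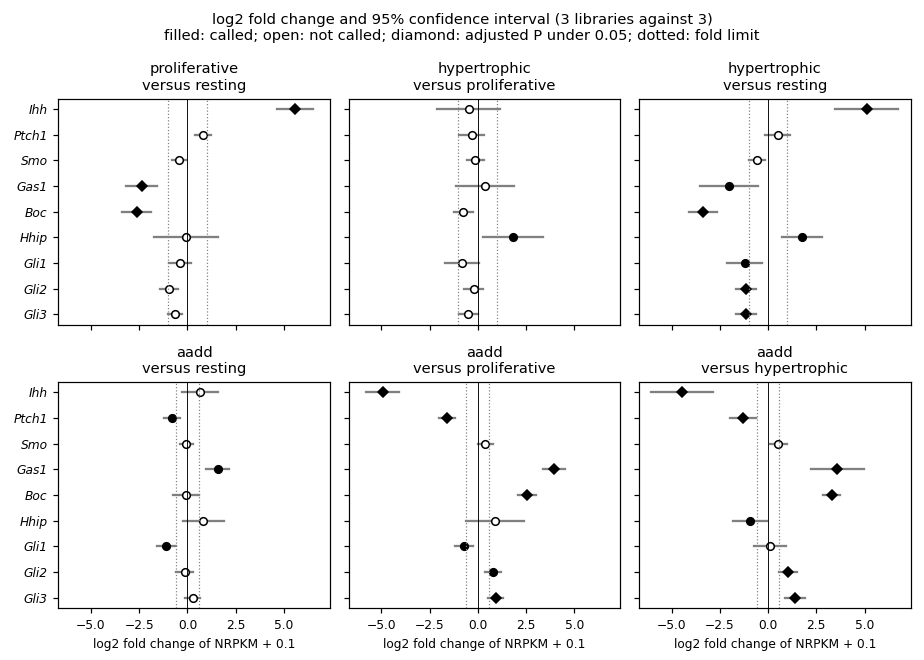
log2 fold change (log2 of NRPKM + 0.1, first group minus second) and 95% confidence interval of the 9 genes in the 6 comparisons, 3 libraries against 3, with called genes filled and those with an adjusted *P* under 0.05 as diamonds. *Gas1*, *Ptch1* and *Gli1* are the genes called between *aadd* and resting.

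**Figure D4:**
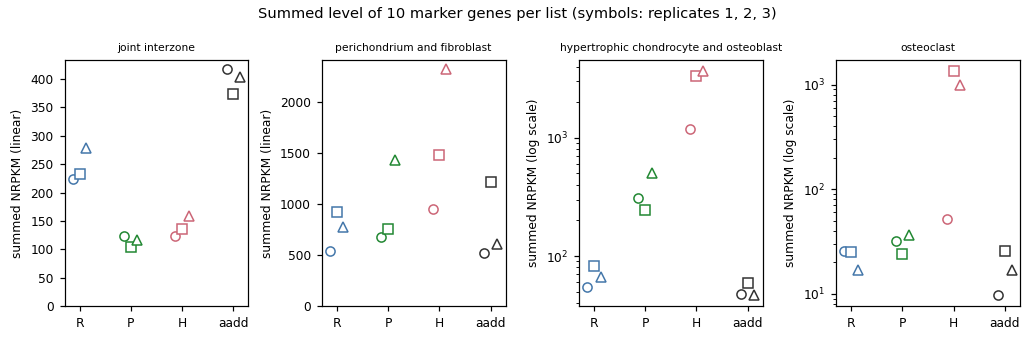
Summed NRPKM of 10 markers in each of 4 lists by library (linear axes for the left 2 panels, log axes for the right 2; R, P, H as above). The joint interzone sum is 374 to 418 in *aadd* against at most 278 in WT, and hypertrophic replicate 1 (circle) has 51.5 NRPKM of osteoclast markers against 1350 and 995.

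Ratios between members within a library do not depend on a scaling factor shared by all its genes. They were chosen after the values were seen, and are given with no test. *Ptch1* over *Smo* was 1.52, 1.31 and 1.07 in resting, 2.79, 3.34 and 3.17 in proliferative, 3.36, 2.36 and 2.57 in hypertrophic and 0.781, 0.663 and 0.875 in *aadd*. It was lower in every *aadd* library than in every WT library. *Gli1* over *Gli3* was 0.42 to 0.784 in the 9 WT libraries and 0.182 to 0.222 in *aadd*. *Hhip* over *Ptch1* was 0.0186 to 0.255 in WT and 0.166 to 0.304 in *aadd*, with overlap. *Gas1* over *Boc* was 0.153 to 0.267 in resting and 0.637 to 0.723 in *aadd*, while the hypertrophic libraries spread from 0.188 to 1.24.

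**Figure D5:**
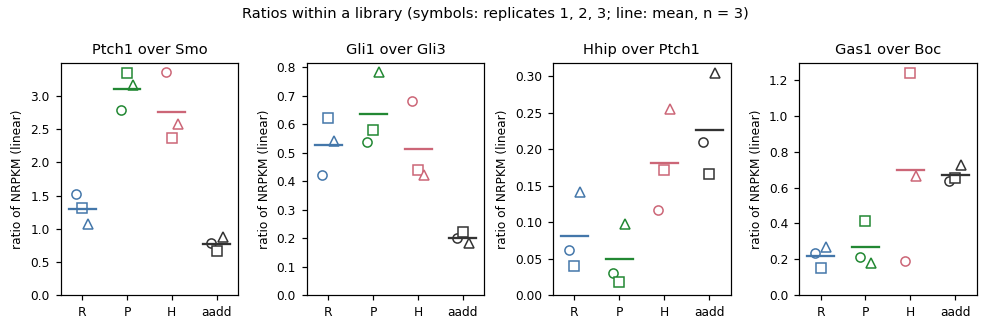
Ratios of NRPKM (linear axes from 0) between pairs of Hedgehog genes within each library, with the mean as a line (n = 3). *Ptch1* over *Smo* and *Gli1* over *Gli3* are below all WT libraries in *aadd*, at most 0.875 and 0.222.

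Of the other ligands, *Shh* was listed at 0 in 11 of the 12 libraries and at 0.0258 NRPKM in the other. *Dhh* stood at 0.864, 1.34 and 0.681 NRPKM in resting, 0.807, 0.442 and 0 in proliferative, 0.904, 0.261 and 0 in hypertrophic and 0.759, 1.05 and 2.42 in *aadd*. In the resting and *aadd* libraries *Dhh* was above *Ihh*, except in *aadd* replicate 1, but both genes were near the floor there. A read on 1 kb was worth 0.338 to 0.416 NRPKM in resting and 0.349 to 0.455 in *aadd*, so this order is not established. Of the 12 other ligand, receptor and release genes, 7 could be tested. *Cdon*, a co-receptor related to *Boc*, was at 48.7, 68.9 and 83.0 NRPKM in resting, 24.3, 26.8 and 31.3 in proliferative, 12.3, 4.06 and 4.93 in hypertrophic and 113, 141 and 111 in *aadd*. No group overlapped another. *Cdon* was called in all 6 comparisons, with a log2 fold change of 0.89 between *aadd* and resting (adjusted *P* of 0.31) and of -1.26 between proliferative and resting (0.091).

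*Scube3* and *Scube1* encode secreted proteins of the family that helps release Hedgehog ligand. *Scube3* fell to 9.26 ± 7.13 NRPKM in hypertrophic (SD, n = 3) from 46.9 ± 8.28 in resting (adjusted *P* of 0.042). *Scube1* was at 4.16 ± 0.724 NRPKM in *aadd* against 14.1 ± 3.42 in proliferative (adjusted *P* of 0.021). *Disp1*, which exports the lipid-modified ligand, was at 43.8 ± 6.09 NRPKM in *aadd* and 22.1 ± 3.54 in proliferative, and was called higher (adjusted *P* of 0.056). Between *aadd* and resting, 2 of the 7 genes were called higher and 2 lower (*Scube1* and the acyltransferase *Hhat*), where 6.56% of all genes were called. The median log2 fold change was -0.43, against 0.01 over all genes.

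Of 19 intracellular transducers tested, none was called between proliferative and resting or between hypertrophic and proliferative, where 5.53% and 9.67% of all genes were called. Between hypertrophic and resting 2 were called lower, where 13% of all genes were called. Counts this small in 19 genes do not set the list apart from those shares. In *aadd*, 1 was called lower than in proliferative, where 15.8% of all genes were called. Against hypertrophic 3 were called higher in *aadd* and 3 lower, where 21.9% of all genes were called. Between *aadd* and resting 2 were called lower, where 6.56% of all genes were called. These were *Kif7*, a ciliary kinesin that regulates Gli proteins (5.54 ± 1.75 NRPKM against 8.79 ± 0.967, adjusted *P* of 0.45), and *Evc2*, a component near the cilium base (log2 fold change -0.59, adjusted *P* of 0.50). Its partner *Evc* was called lower in hypertrophic than in resting (3.58 ± 1.18 against 8.74 ± 0.357, adjusted *P* of 0.037). The median of the list between *aadd* and resting was -0.16, against 0.01 over all genes. Of 19 genes of cilium transport and assembly, 4 were called higher in *aadd* than in proliferative and 5 higher than in hypertrophic, with none lower, and none was called between *aadd* and resting. Of all genes, 15.8%, 21.9% and 6.56% were called in these comparisons, in either direction. Of the 10936 genes tested, 1074 were called higher in *aadd* than in proliferative and 1336 higher than in hypertrophic. The median log2 fold change of the list was 0.42 against proliferative, 0.47 against hypertrophic and 0.08 against resting. Over all genes it was 0.05, 0.01 and 0.01. The counts are small, and the list was not tested as a set. *Ift81*, of the intraflagellar transport complex, was at 15.3 ± 0.54 NRPKM in *aadd*, 8.53 ± 1.35 in proliferative (adjusted *P* of 0.061) and 5.96 ± 0.411 in hypertrophic (adjusted *P* of 0.0068).

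Of 14 genes described elsewhere as Hedgehog targets, 7 could be tested. Between *aadd* and resting, where 6.56% of all genes were called, *Foxc2*, a mesenchymal transcription factor, was the one called (19.6 ± 5.68 NRPKM against 8.94 ± 4.69, adjusted *P* of 0.46). *Pthlh* was at 18.7, 18.5 and 16.2 NRPKM in resting, 4.04, 5.04 and 2.45 in proliferative, 4.66, 0.409 and 0.888 in hypertrophic and 25.4, 9.44 and 33.0 in *aadd*. It was called lower in proliferative than in resting (log2 fold change -2.24, adjusted *P* of 0.034) and higher in *aadd* than in hypertrophic (3.90, 0.048). *Grem1*, a BMP antagonist, was at 8.03 ± 2.88 NRPKM in *aadd* and 0.508 ± 0.71 in hypertrophic (adjusted *P* of 0.036).

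*Pthlh* also belongs to the list of 6 PTHrP loop and prehypertrophic genes, of which 5 were called higher, like *Ihh*, in proliferative and hypertrophic than in resting. Between hypertrophic and resting *Pthlh* was called lower, where 13% of all genes were called. None of the 6 was called between hypertrophic and proliferative, where 9.67% of all genes were called. From resting to proliferative 5 of the 6 were called higher and *Pthlh* lower, where 5.53% of all genes were called, and the median log2 fold change was 2.30 against -0.06 over all genes. In *aadd* the same split was reversed against proliferative, with 5 lower and *Pthlh* higher, where 15.8% of all genes were called, and a median of -2.37 against 0.05. *Panx3*, a channel protein of prehypertrophic cells, was at 11.4 ± 8.43 NRPKM in resting, 243 ± 53.9 in proliferative, 267 ± 67.0 in hypertrophic and 2.23 ± 1.89 in *aadd*. *Sp7*, an osteoblast and hypertrophic transcription factor, was at 6.01 ± 4.74, 80.1 ± 16.4, 131 ± 21.1 and 3.88 ± 1.91 NRPKM in the same order. Both were called between each of proliferative and hypertrophic and each of resting and *aadd*. *Panx3* was also called lower in *aadd* than in resting (log2 fold change -2.37, adjusted *P* of 0.33).

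For each member, the genes with the most similar profile over the 12 libraries were found by the root mean square (RMS) difference of mean-centred log2 values. *Ihh*, with an RMS of 2.61 about its own mean, was nearest to *Smpd3* (0.84) and *Sgms2* (0.87). *Boc* (1.53) was nearest to *Adamtsl3* (0.50) and *Creb5* (0.51), and *Gas1* (1.69) to *Adamts15* (0.71) and *9430076C15Rik* (0.73). *Ptch1* (0.65) was nearest to *Lrrc42* (0.24) and *Klhl13* (0.30), and *Hhip* (1.01) to *Sema3b* (0.49) and *Gxylt2* (0.60). *Gli1* (0.60) was nearest to *Gpsm1* (0.27) and *Xylt1* (0.29), *Gli2* (0.53) to *Leprel2* (0.17) and *Adamts10* (0.18), and *Gli3* (0.57) to *Ccp110* (0.17) and *Gpsm2* (0.17). *Smo* (0.27), which varied least, was nearest to *Kmt2c* (0.09).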

How the data were processed

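RNA-Seq was analysed for 12 libraries, 3 in each of 4 groups. The deposited values are RPKM that the authors normalized further between libraries in GeneSpring 12.6.1 (NRPKM). The submitters' processing notes name TopHat and mm10. The scaling and the use of strand are not given in the sources used here. The table gives no counts. Depth was estimated from the value of 1 read in silent genes and covers counting error only.

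Values were tested as log2(NRPKM + 0.1) in limma 3.58.1 (R 4.3.3) with Benjamini-Hochberg adjustment over 10936 genes, those that reached 5 NRPKM in 3 or more libraries. Each comparison used its 6 libraries without covariates. Fold changes are on this scale, which understates those of low genes. The procedure was tested on simulated data. Python 3.11.15 made the tables and plots.

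All 9 members are named, with up to 3 called genes of each pathway list per comparison by fold change and the 2 most similar genes of each member. Some genes under this rule are not reported here. Members and lists were chosen with earlier results of these data known. Same-numbered resting and proliferative libraries deviated together (*r* of 0.281, 0.179 and 0.198), so the replicate block is given beside results it changed there. Alternatives were a pseudocount of 1, no filter, median of ratios, quantile normalization, 1 fit of all libraries, the block and each library left out. Subtraction of the silent gene background was chosen after seeing the data.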

Additional observations from a re-analysis of the deposited data

How the results depend on the processing

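Of 54 pairs of gene and comparison, 28 were called, and 23 of these were called under all 13 alternatives. A pseudocount of 1, quantile normalization, median of ratios scaling, the replicate block and background subtraction ended none of the 28 calls. No filter, or 1 fit of all libraries, ended the call of *Hhip* between *aadd* and hypertrophic, as did leaving out single libraries, which also ended those of *Hhip* between hypertrophic and proliferative, *Gli1* and *Gas1* between hypertrophic and resting, and *Gli1* between *aadd* and proliferative. With each library left out, 0 to 3 Hedgehog genes were called between hypertrophic and proliferative, where 658 to 2007 of the 10936 genes tested were called.

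The sign of *Hhip* between proliferative and resting turned with quantile normalization (0.03), and its log2 fold change was -0.78 to 0.45 with a library left out. The same ranges were -1.21 to 0.07 for *Ihh* and -0.14 to 1.04 for *Gas1* between hypertrophic and proliferative, -0.41 to 0.13 for *Boc* between *aadd* and resting and -0.12 to 0.49 for *Gli1* between *aadd* and hypertrophic. None of these differences was called in the reported fit. *Smo* was added between *aadd* and hypertrophic by quantile normalization.

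With the replicate number as a block, 5 Hedgehog genes rather than 3 were called between *aadd* and resting, *Ihh* and *Hhip* being added, and *Hhip* was added between *aadd* and proliferative. Of the 10936 genes tested, the block called 789 rather than 717 between *aadd* and resting, with 0 rather than 13 past adjustment. Between *aadd* and proliferative it called 1721 rather than 1732. Outside the comparison of proliferative and resting the numbers paired the libraries weakly, unevenly or not at all. Between *aadd* and resting the same-numbered libraries had an *r* of 0.051, 0.28 and -0.097, and *aadd* replicate 3 with resting replicate 1 had 0.317. Between hypertrophic and resting each library correlated best with its own number, but weakly (0.066, 0.063 and 0.111). With the block in that comparison, the adjusted *P* by limma was 0.092 for *Gli2* and 0.094 for *Gli3*, and 0.02 for *Ihh* and 0.03 for *Boc*. The block left 9 rather than 68 genes past adjustment between proliferative and resting.

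Without the filter 23070 rather than 10936 genes were tested. Between proliferative and resting 1495 rather than 605 were called (6.48% of those tested against 5.53%), between hypertrophic and proliferative 1929 rather than 1057 (8.36% against 9.67%), between hypertrophic and resting 2537 rather than 1426 (11% against 13%) and between *aadd* and resting 1267 rather than 717 (5.49% against 6.56%). Without hypertrophic replicate 1, 2007 genes were called between hypertrophic and proliferative and 3738 rather than 2397 between *aadd* and hypertrophic. Without hypertrophic replicate 3 the former was 658. The cause of these last changes was not tested. Depth limits *Ihh* in resting and *aadd*.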
